A study of Mus musculus with 6 samples.

Results

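The organic anion and cation transporters of the proximal tubule were followed through the peak lists of 6 ATAC-seq libraries, an assay in which a transposase inserts sequencing adapters into accessible DNA. The 9 genes were Slc22a6, Slc22a8, Slc22a12, Slc22a2, Slc22a4, Slc22a5, Slc47a1, Abcc2 and Abcc4. A region belonged to a gene when its strongest summit lay in the gene body or within 20 kb of it (GRCm38, GENCODE release M21). This gave 117 regions of the 99340 found in all lists. Of these, 10 lay within 1 kb of the gene's own annotated start (own promoter), 8 lay within 1 kb of the start of another gene, and 99 were distal. Slc22a12 and Slc22a5 had 2 own promoter regions each, Slc22a8 had none and the other 6 genes had 1. The windows of Slc22a6 and Slc22a8, which are neighbours, share 7 regions, each counted once.

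The libraries came from kidneys of male wild-type C57BL/6 mice from Taconic, 7 weeks old, taken 24 h after surgery. There were 3 Sham libraries, from mice with a sham operation, and 3 UNx libraries, from mice that had lost 1 kidney by surgical excision (unilateral nephrectomy). Each library was made from 3 hand-dissected S1 tubules, the first segment behind the glomerulus. Whether the libraries come from separate mice is not given in the labels, so the p-values below measure the spread between libraries, which may be partly technical.

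These transporters move drugs, toxins and metabolites from blood to urine in 2 steps. Organic anions enter the tubule cell across the basolateral membrane through OAT1 (Slc22a6) and OAT3 (Slc22a8), in exchange for dicarboxylates, and organic cations enter through OCT2 (Slc22a2). At the apical membrane, MATE1 (Slc47a1) exchanges cations for protons, and the ATP-driven pumps MRP2 (Abcc2) and MRP4 (Abcc4) export conjugates and other anions. URAT1 (Slc22a12) works in the opposite direction and takes urate back from the lumen, while OCTN1 (Slc22a4) and OCTN2 (Slc22a5) carry organic cations and, for OCTN2, carnitine.

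The sequences of 8 regions are shown first, because the results below turn on them. The first is the region at the alternative start of Slc22a8. The second is the strongest region between Slc22a8 and Slc22a6. The third has the smallest p of that locus. The Slc47a1 region was in UNx lists only, after all lists were cut to equal length. The other 4 are the regions outside exons that had the smallest adjusted p of UNx against Sham (all under 0.1). Of these, Abcc4 at 27393 bp met the minimum of lists for the test through UNx, so its p is not read below. Each of the 8 is the GRCm38 sequence within 100 bp of the strongest summit with annotated exons removed, written 5′ to 3′ on the strand of the gene. Capitals mark matches, on either strand, to the strings HNF4 (CAAAGTCCA), AP-1 (TGANTCA) or NRF2 (TGACNNNGC), and sequences without capitals hold none. The consensus of HNF1, the fourth string searched, has no match in these 8. In the Slc22a6 region 12410 bp downstream the HNF4 and AP-1 matches overlap and form 1 run of capitals.
Slc22a8, 1777 bp downstream of the start (chr19:8592931-8593131, plus strand): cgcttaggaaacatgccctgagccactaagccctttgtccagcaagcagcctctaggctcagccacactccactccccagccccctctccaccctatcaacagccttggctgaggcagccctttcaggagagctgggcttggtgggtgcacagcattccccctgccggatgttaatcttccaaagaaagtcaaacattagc
Slc22a6, 12725 bp upstream of the start (chr19:8605214-8605393, plus strand): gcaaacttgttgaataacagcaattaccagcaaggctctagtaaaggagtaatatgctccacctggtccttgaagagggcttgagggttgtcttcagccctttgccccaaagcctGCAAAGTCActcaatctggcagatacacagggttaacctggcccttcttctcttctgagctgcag
Slc22a6, 12410 bp downstream of the start (chr19:8630349-8630549, plus strand): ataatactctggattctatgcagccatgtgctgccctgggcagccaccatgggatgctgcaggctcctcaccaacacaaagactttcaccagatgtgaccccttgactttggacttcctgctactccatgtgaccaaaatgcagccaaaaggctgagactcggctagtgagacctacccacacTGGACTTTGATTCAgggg
Slc47a1, 2822 bp downstream of the start (chr11:61375159-61375359, minus strand): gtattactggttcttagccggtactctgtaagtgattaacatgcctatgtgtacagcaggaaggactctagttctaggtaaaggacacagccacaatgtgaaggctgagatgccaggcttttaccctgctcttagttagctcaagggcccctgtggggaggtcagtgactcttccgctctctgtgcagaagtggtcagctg
Slc22a12, 9408 bp upstream of the start (chr19:6552340-6552540, minus strand): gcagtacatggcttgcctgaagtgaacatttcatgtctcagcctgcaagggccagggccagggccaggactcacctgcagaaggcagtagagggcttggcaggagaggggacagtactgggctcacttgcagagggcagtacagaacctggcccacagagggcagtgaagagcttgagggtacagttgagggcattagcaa
Abcc4, 114510 bp downstream of the start (chr14:118591609-118591809, minus strand): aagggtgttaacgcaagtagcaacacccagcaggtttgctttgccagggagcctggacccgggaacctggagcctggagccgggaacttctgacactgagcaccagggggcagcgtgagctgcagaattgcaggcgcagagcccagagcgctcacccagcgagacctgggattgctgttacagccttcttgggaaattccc
Abcc4, 27393 bp downstream of the start (chr14:118678726-118678926, minus strand): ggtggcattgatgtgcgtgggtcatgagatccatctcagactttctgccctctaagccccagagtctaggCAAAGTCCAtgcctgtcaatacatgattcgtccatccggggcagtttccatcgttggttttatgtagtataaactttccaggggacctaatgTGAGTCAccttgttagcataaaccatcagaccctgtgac
Abcc4, 70590 bp downstream of the start (chr14:118635529-118635729, minus strand): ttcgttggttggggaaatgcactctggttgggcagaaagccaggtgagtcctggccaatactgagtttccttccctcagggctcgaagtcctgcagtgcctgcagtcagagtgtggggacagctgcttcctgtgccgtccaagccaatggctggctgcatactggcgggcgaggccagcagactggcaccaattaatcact

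The lists have no read counts, so the depth of the libraries is unknown. Peak strength was therefore compared as a percentile rank within lists of equal length, the 77355 strongest peaks of each library, where 100 is the strongest peak and 0 means not among them. Values are given in the order of libraries 1, 2 and 3 of each group. The deposited lists held 77355 to 100999 peaks, with Sham 2 the shortest, and their median −log10 q (the authors' significance of a peak) ran from 12.1 in Sham 2 to 26.5 in UNx 3. Promoters of 6 of 6 S1 markers had a region in all 6 libraries, with summed percentiles of 530 to 554 in Sham and 529 to 545 in UNx. Of 5 distal tubule and collecting duct promoters, those of Slc12a3, Aqp2 and Atp6v1g3 had none in any library. Those of Calb1 and Scnn1g had a region in all 6, with Scnn1g at percentiles of 85.4 to 95.7. Slc7a13 of the S3 segment, Ptprc of leukocytes, and Pdgfrb and Tagln of stroma had none in any library, while Col1a1 of stroma was in all 6. Some markers of other cells differed in rank with the operation. The 4 endothelial promoters summed to 20.9 to 30.1 in Sham and 0 to 0.521 in UNx, and the 2 thick limb promoters (Umod, Slc12a1) to 119 to 125 and 84.7 to 107. The 6 promoters of S2 and S3 summed to 145 to 208 in Sham and 113 to 166 in UNx, with 3 of 6 in all libraries. The summed ranks of the 2 podocyte promoters were 15.5 to 37.8 and 0 to 47.0, and those of the 2 immune promoters 0 in every Sham library and 0 to 25.8 in UNx. For the 5 distal tubule and collecting duct promoters they were 145 to 165 in Sham and 150 to 156 in UNx, from 2 of 5 genes (Calb1, Scnn1g), and for the 3 stromal ones, from Col1a1 alone, 68.9 to 69.4 and 53.9 to 66.1. Whether these shifts contribute to the differences below was not tested.

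The density of regions differed between the 9 genes. Of the 117 regions, 62 (53.0%) were in all 6 lists, against 53.4% of all regions, and 22 were in a single list. Own promoters were in all 6 lists in 8 of 10 cases, other genes' promoters in 6 of 8, and distal regions in 48 of 99. Slc22a12 had the densest window, with 16 regions in 47.2 kb, or 3.39 per 10 kb. Slc22a8 followed with 15 (2.48 per 10 kb) and Slc47a1 with 18 (2.40 per 10 kb). Slc22a5 had 13 (1.94), Slc22a6 8 (1.59), Abcc2 14 (1.42) and Slc22a4 10 (1.18). The median over coding genes was 0.638 per 10 kb (quartiles 0.212 and 1.17), so these 7 genes lay above the upper quartile. Abcc4, whose window spans 264 kb, held the most regions, 24 (0.911 per 10 kb), and Slc22a2 the fewest, 6 (0.711 per 10 kb).

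**Figure D1:**
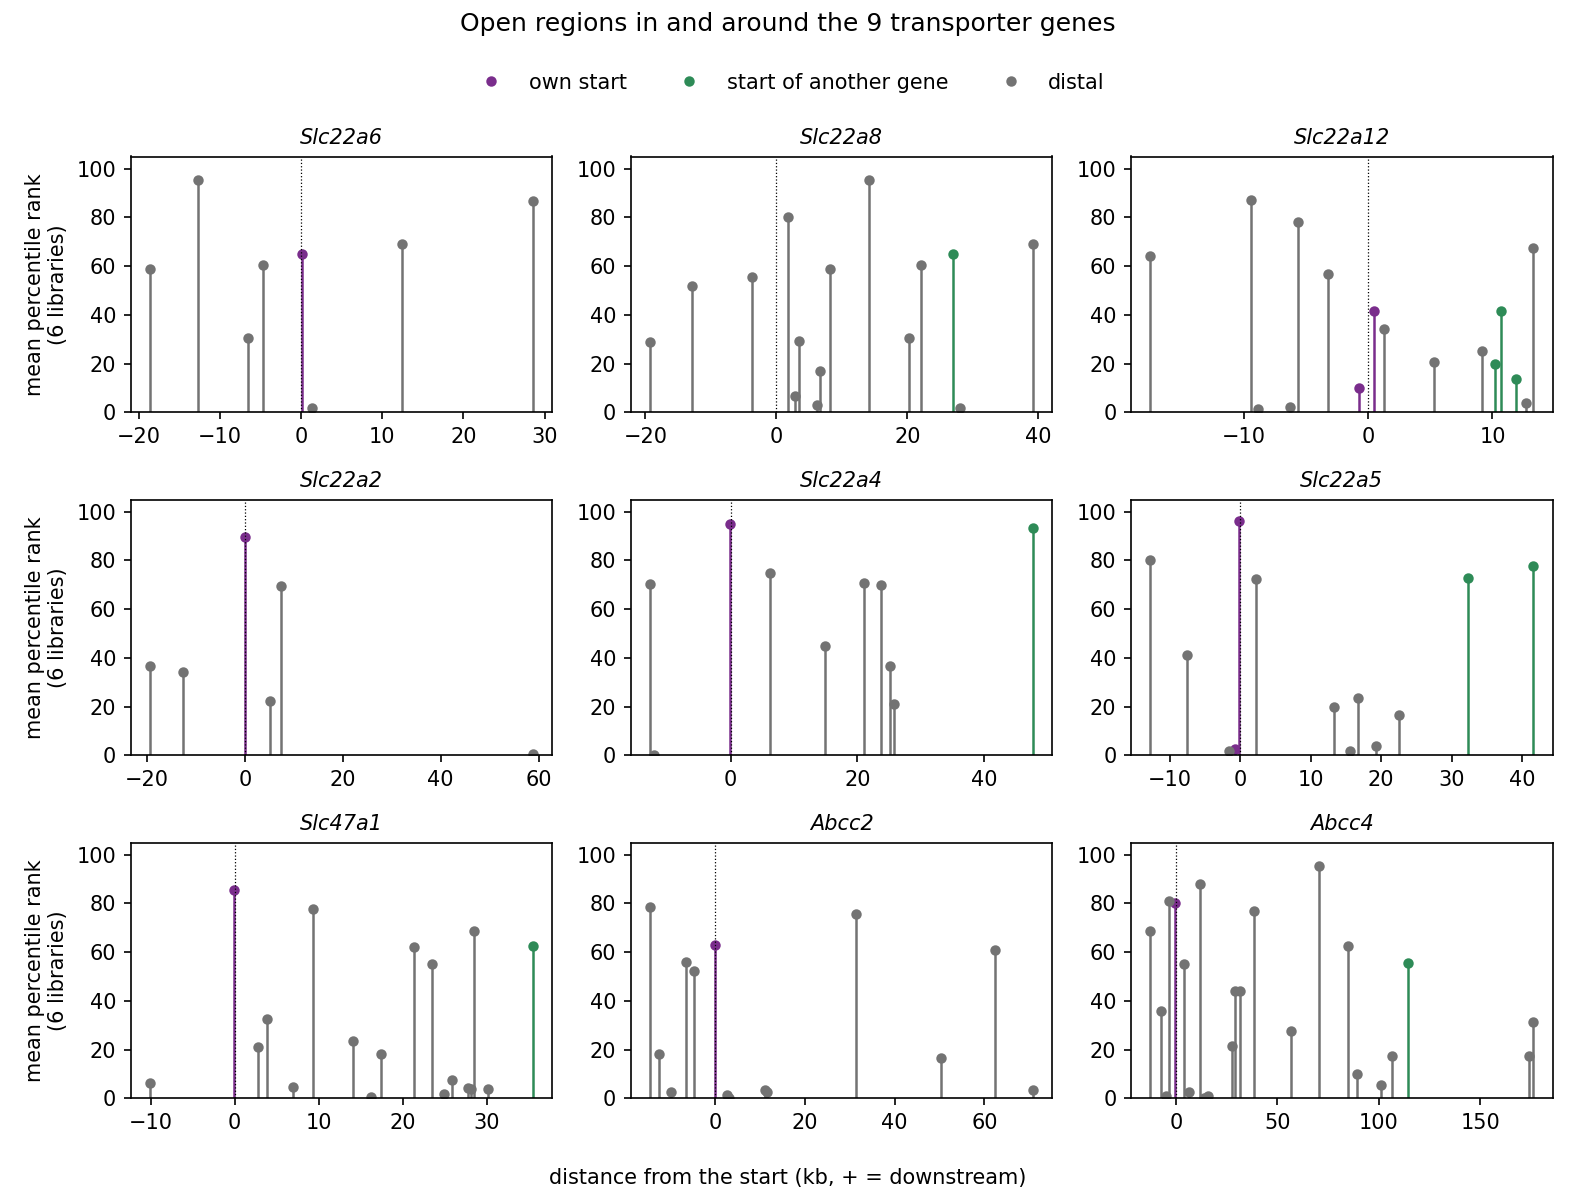
Regions around each of the 9 transporter genes. Each stem is 1 region, placed by the distance in kb of its strongest summit from the gene's most upstream annotated start (positive is downstream) and as high as its mean percentile rank over the 6 libraries. Purple marks the gene's own start, green the start of another gene and grey distal regions. Slc22a8 has no purple stem, and in Slc22a6, Slc22a12, Abcc2 and Abcc4 at least 1 distal region stands above the own promoter.

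The starts of the 9 genes differed in rank. Slc22a5 (OCTN2) had the strongest own promoter, with a percentile of 96.3 ± 3.30 (SD, n = 6 libraries), above 82.9% of the promoters of the 13788 coding genes that have one. Slc22a4 (OCTN1), its neighbour on chromosome 11, stood at 95.1 ± 1.82 and Slc22a2 (OCT2) at 89.6 ± 3.84. Next came Slc47a1 (MATE1), with 85.3 ± 2.87, and Abcc4 (MRP4), with 80.1 ± 3.61. Below the other genes lay Slc22a6 (OAT1) at 65.1 ± 8.20, Abcc2 (MRP2) at 63.0 ± 8.72 and Slc22a12 (URAT1) at 41.7 ± 3.51 (SD, n = 6 each). The median coding promoter stood at 85.5, and Slc22a12 was above 13.9% of them. Neighbours in this order overlapped in their ranges over the libraries, except that Abcc4 (lowest 74.74) stayed just above Slc22a6 (highest 74.73) and Abcc2 (lowest 50.5) above Slc22a12 (highest 48.5).

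Slc22a8 (OAT3) was the exception among the 9 genes. No deposited list, at any strength, held a peak with its strongest summit within 1 kb of the starts that GENCODE gives (the most upstream at 8591254 on chromosome 19). Its first region lay 1777 bp downstream, in an intron, 151 bp upstream of an alternative start in RefSeq's curated annotation (8593182). In Sham libraries 1 to 3 its percentiles were 87.9, 79.3 and 67.2, and in UNx libraries 88.8, 75.1 and 83.1. The 2 groups overlapped, and at 80.3 on average it stood close to the promoter of Abcc4. Abcc4 itself had a further region 29304 bp downstream, 16 bp from a second curated RefSeq start (118676931). Because the classes use GENCODE starts, both regions are counted as distal. With curated RefSeq starts added, the regions in at least 3 lists were 11 own promoters and 68 distal regions.

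**Figure D2:**
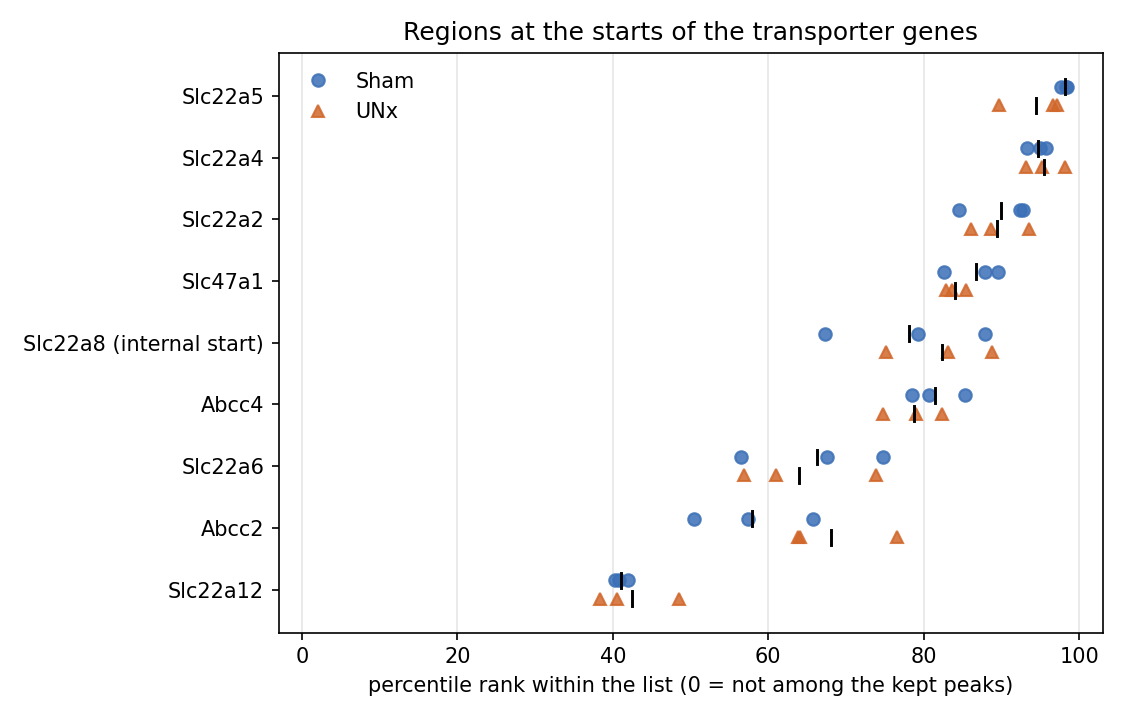
Percentile rank (x axis) of the region at the start of each gene, by library. Blue circles are the 3 Sham and orange triangles the 3 UNx libraries, black bars are group means, and genes are ordered by mean. For Slc22a8 the region near the internal RefSeq start is shown. Sham and UNx points overlap in every gene but Slc22a5, where UNx points of 96.6, 89.7 and 97.1 lie below Sham points of 97.7 or more.

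None of the transporters' own promoters passed the test of UNx against Sham. Ranks were compared in the 87 transporter regions present in at least 3 lists (9 own promoters, 8 promoters of other genes and 70 distal regions), while 30 were too rare to test. With limma over all 74774 such regions and Benjamini-Hochberg adjustment, 0 of the 87 were called at an adjusted p under 0.05, and over all regions the share called was 0.808%. At an unadjusted p under 0.05 there were 18 (20.7%), against 18.6% of all regions. The groups did not overlap (every UNx value on one side of every Sham value) in 20 of 87 transporter regions (23.0%), and in 23.7% of all regions. All 3 counts are thus near the background. In 12 the UNx values were higher and in 8 lower, where all regions gave 12% and 11.7%. By place the 20 were 2 of 9 own promoters (21.2% of all regions within 1 kb of a start), 13 of 70 distal regions (24.4% of those beyond 1 kb) and 5 of 8 promoters of other genes (again 21.2% of all regions within 1 kb of a start). Of these 5, 3 lie side by side near the start of Gm14964 and may not be independent. Of the 20, 3 regions were in all UNx lists and no Sham list, so they reached the minimum of 3 lists only through the group in which they were high, and their own tests are not read below. Slc22a12 at 11878 and 5342 bp and Abcc4 at 27393 bp were in all UNx lists and 1 Sham list. Slc22a5 at 16716 bp was in all UNx lists and 2 Sham lists. Slc47a1 at 30116 bp was in all Sham lists and 1 UNx list. These too met the minimum through the group in which they were high, and their p-values are not read either.

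The median difference (UNx minus Sham, in percentile points) was −0.483 over the 9 own promoters, with 4 higher and 5 lower, and 0.0103 over all regions within 1 kb of a start. For the own promoters it was positive without Sham 2 (0.188), without Sham 3 (1.02) and without UNx 1 (0.457). Over the 70 distal regions it was 1.09, with 40 higher, and −0.0297 over all regions beyond 1 kb.

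**Figure D3:**
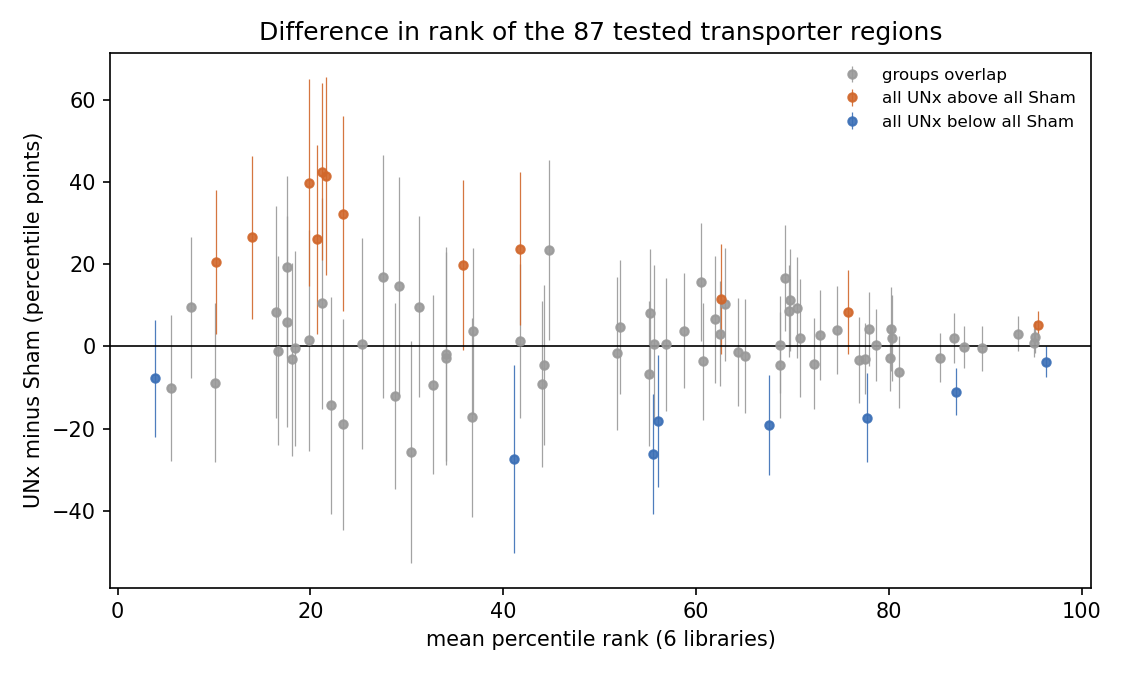
Difference in percentile rank (UNx minus Sham, y axis, with 95% intervals from limma) against mean rank (x axis) for the 87 tested transporter regions. Orange and blue points are the 12 and 8 regions whose UNx values all lie above or below all Sham values. The differences range from −27.3 to 42.4 and shrink toward the strongest regions on the right.

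The number of transporter regions per list was close between the operations. In lists of equal length, Sham libraries had 87, 88 and 78 of the 117 regions and UNx libraries 85, 83 and 96. The means were 84.3 ± 5.51 and 88 ± 7 (SD, n = 3 each), a difference of 3.67 (exact permutation test, two-sided, p = 0.6, where 3 libraries against 3 cannot go below 0.1). Without UNx 3, which had the most, the difference was −0.333. In the full deposited lists, whose lengths differ, there were 109, 102 and 108 peaks in the windows in Sham and 110, 121 and 135 in UNx (106.3 ± 3.79 and 122 ± 12.5, SD, n = 3 each). In number, all UNx lists were above all Sham lists there (exact permutation test, two-sided, p = 0.1, the smallest possible). UNx 1 exceeded Sham 1 by a single peak. As a share of each deposited list, the groups overlapped. The shares were 0.1114%, 0.1319% and 0.1114% in Sham and 0.1175%, 0.1198% and 0.1375% in UNx. Sham 2, the shortest list, thus lay above UNx 1 and UNx 2.

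Among the anion uptake genes, the region of highest rank was shared. It lay in an intron of Slc22a8 (19:8604459-8605584), 14060 bp downstream of that gene's start and 12725 bp upstream of Slc22a6. It stood at 96.1, 89.9 and 96.1 in Sham and at 96.1, 97.8 and 95.1 in UNx libraries, so the groups overlapped, and it holds an NRF2 string. Its mean of 95.2 was above that of the Slc22a6 promoter (65.1), which was at 67.5, 56.5 and 74.7 in Sham and at 56.9, 60.9 and 73.9 in UNx. Between the genes and beyond Slc22a6, 2 regions of lower rank had the smallest p of the locus. The one 4733 bp upstream of Slc22a6 was at 47.4, 48.0 and 62.5 in Sham and 70.6, 62.3 and 72.1 in UNx, a difference of 15.7 ± 6.81 (SE). The one 12410 bp downstream of its start was at 53.7, 68.7 and 60.3 in Sham and 87.5, 67.3 and 77.6 in UNx, a difference of 16.6 ± 6.14 (SE; limma adjusted p = 0.161, and 0.224 for the first). In both, UNx 2 lay within the Sham range, and neither passed the test. None of the 7 tested regions of Slc22a6 or the 11 of Slc22a8, most of the former shared between the genes, separated the groups (23.7% of all regions did).

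Slc22a12 (URAT1) had the weakest promoter of the genes with one, and its groups were separated in 7 of 13 tested regions (23.7% of all regions). Of these 7, 3 lie side by side past the end of the gene and may not be independent. In UNx lists only, when lists were of equal length, were 2 of the 7. The own promoter region, 506 bp downstream of the start, was at 42.0, 40.3 and 40.8 in Sham and 38.3, 40.5 and 48.5 in UNx. It overlaps a coding exon of Slc22a12 and a UTR exon of Nrxn2, a neurexin gene whose annotation runs over the same stretch. Its strongest region lay 9408 bp upstream, between genes. There the percentiles were 93.5, 92.3 and 91.7 in Sham and 82.4, 85.8 and 76.4 in UNx. Every UNx library was lower, with a mean difference of −10.97 ± 2.74 percentile points (SE; 95% interval −16.7 to −5.21; limma adjusted p = 0.0610). The region passed without UNx 2 (adjusted p = 0.0470), and over all 17 alternatives its adjusted p ran from 0.0470 to 0.336. A second region, 13286 bp downstream and past the end of the gene, was also lower, at 77.4, 80.9 and 73.0 in Sham and 64.0, 60.7 and 49.3 in UNx (adjusted p = 0.102).

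The other 5 separated regions of Slc22a12 were weak and higher in UNx. Of these, 3 lie within 1 kb of the start of Gm14964, a gene model past the end of Slc22a12, and 2 of the 3 in a UTR exon of Nrxn2, while the lower region at 13286 bp lies in an Nrxn2 intron. The 3 lie side by side (19:6531056-6531268, 19:6531324-6532629 and 19:6532701-6532982), so they may not be independent. Which gene these regions belong to cannot be told from peak lists. The one 10658 bp downstream of the Slc22a12 start was at 34.5, 29.3 and 25.6 in Sham and 52.7, 52.6 and 55.4 in UNx (limma adjusted p = 0.164). Its neighbour at 10199 bp was absent from all equal-length Sham lists and at 24.9, 26.8 and 67.6 in UNx. The third, at 11878 bp, was at 1.96, 0 and 0 in Sham and 16.1, 41.2 and 24.2 in UNx. A region 694 bp upstream of the Slc22a12 start, again in a UTR exon of Nrxn2, was likewise in no Sham list and at 25.3, 9.50 and 26.6 in UNx. The last, in a coding exon 5342 bp downstream, was at 23.0, 0 and 0 in Sham and 33.8, 40.6 and 26.7 in UNx. Every UNx value lay above every Sham value. In a fit of all 99340 regions, however few lists held them, limma's adjusted p was 0.222 for the region at 10199 bp and 0.304 for that 694 bp upstream. The other alternatives kept the filter, so their p-values for both regions are not read. In the full deposited lists Sham 3 held the region at 10199 bp at a percentile of 14.9, while the one 694 bp upstream was in none of the Sham lists.

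The cation uptake genes showed strong starts. The Slc22a2 promoter was at 84.5, 92.4 and 92.8 in Sham and 88.6, 93.6 and 86.0 in UNx, and the Slc22a4 promoter at 95.7, 93.3 and 94.9 and at 95.3, 98.1 and 93.2. Groups overlapped at both, and in none of the 5 and 9 tested regions of these genes were they separated (23.7% of all regions were). The widest contrast at Slc22a2 was a region 19461 bp upstream, at 46.6, 47.4 and 42.2 in Sham and at 39.2, 0 and 45.3 in UNx, where UNx 2 lacked it among the peaks kept and held it at 7.89 in its full list. The difference was −17.2 and, without UNx 2, −3.17. In an intron of Slc22a4, 14953 bp downstream, values were scattered in Sham (54.9, 33.4 and 10.9) and higher on average in UNx (54.6, 50.4 and 64.5; limma adjusted p = 0.238), by 23.4 points, or 12.4 without Sham 3.

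Slc22a5, the carnitine transporter, had a very strong promoter and 4 separated regions of 9 tested (23.7% of all regions were separated). Its promoter, the strongest of the 9 genes, was at 98.3, 98.5 and 97.7 in Sham and 96.6, 89.7 and 97.1 in UNx. The difference was −3.65 ± 1.79 (SE; 95% interval −7.40 to 0.0981; limma adjusted p = 0.282), and −1.27 without UNx 2, the lowest library. A region 41564 bp downstream, at the start of Gm12216, was lower in UNx, with 86.7, 84.1 and 88.4 in Sham and 61.6, 83.1 and 62.5 in UNx (adjusted p = 0.0969). Here UNx 2 stood close to Sham, and without it the adjusted p was 0.0384. Over 17 alternatives it ran from 0.0384 to 0.919. Another, 7518 bp upstream, was at 60.7, 44.3 and 59.4 in Sham and 3.16, 35.2 and 44.2 in UNx (adjusted p = 0.190). In the opposite direction, a region in a coding exon 16716 bp downstream was at 19.2, 0 and 2.39 in Sham and 34.6, 28.9 and 55.1 in UNx. It met the minimum of lists for the test through UNx, so its p is not read.

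Slc47a1 (MATE1) had an intronic region, 2822 bp downstream of the start (11:61375120-61375478), that was in none of the equal-length Sham lists and at 43.3, 38.7 and 45.3 in UNx libraries. The mean difference was 42.4 percentile points. Since it entered the tested set only through the UNx lists, its p there is not read. In the fit of all 99340 regions limma's adjusted p was 0.138. The other alternatives kept the filter, so their p-values for this region are not read either. The region was a peak of moderate height in UNx, with the authors' fold enrichment at 3.20, 3.05 and 3.03. The full deposited lists held it as a weak peak in Sham 1 (percentile 4.66) and Sham 3 (19.1) and not in Sham 2, against 53.1, 53.1 and 56.9 in UNx. None of the 4 searched strings lies in its window. With both Slc22a12 regions it made up the 3 transporter regions found in all UNx lists and no Sham list of equal length. That class holds 1.04% of all regions, and 0 transporter regions had the opposite pattern (0.92% of all regions). The Slc47a1 promoter, 57 bp upstream of the start, did not separate the groups, at 87.9, 89.6 and 82.6 in Sham and 82.9, 85.5 and 83.6 in UNx. Of the 12 tested regions of Slc47a1, 2 were separated (23.7% of all regions were). The second was weak and lower in UNx. It lay in an intron 30116 bp downstream, at 6.49, 2.51 and 14.2 in Sham and 0, 0 and 0.127 in UNx.

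The apical pumps differed from each other. Abcc2 (MRP2) had its strongest regions away from the start, 14463 bp upstream in an intron of Cutc (percentile 74.1, 79.1 and 82.2 in Sham, 78.2, 74.1 and 84.1 in UNx) and 31389 bp downstream in its own intron (77.4, 61.8 and 75.6 in Sham, 78.5, 82.5 and 79.1 in UNx). The second was higher in every UNx library, by 8.39 ± 4.84 (SE; limma adjusted p = 0.366), and by 3.50 without Sham 2, the lowest library. A region 6543 bp upstream was lower, at 67.1, 55.5 and 72.6 in Sham and 36.2, 52.7 and 51.9 in UNx (adjusted p = 0.213). The promoter stood at 57.4, 50.5 and 65.8 in Sham and 63.8, 64.0 and 76.5 in UNx, with overlapping groups. It holds an NRF2 string, the element bound by the oxidative stress regulator NRF2, in its summit window.

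Abcc4 (MRP4) had 5 separated regions of 19 tested, near the 23.7% of all regions, and groups overlapped at its promoter, at 80.7, 85.3 and 78.5 in Sham and 74.7, 79.0 and 82.4 in UNx. The strongest region of the gene lay in an intron 70590 bp downstream. It was at 93.1, 90.2 and 95.1 in Sham and at 98.0, 98.2 and 98.2 in UNx, a difference of 5.31 ± 1.61 (SE; 95% interval 1.94 to 8.68; limma adjusted p = 0.0999). With normal scores, which stretch the top of the scale, the adjusted p was 0.0442, and over 17 alternatives it ran from 0.0442 to 0.669. An intronic region 27393 bp downstream was at 0, 2.57 and 0 in Sham and 40.8, 24.2 and 61.8 in UNx, and its p is not read. The full lists held it in all Sham libraries, at 19.3, 2.57 and 15.3. Its window has an HNF4 and an AP-1 string. The third, 114510 bp downstream in an intron and 763 bp from the start of the microRNA gene Mir6391, was lower, at 69.1, 65.9 and 70.7 in Sham and 42.9, 40.8 and 43.6 in UNx. The difference was −26.1 ± 6.94 (SE; 95% interval −40.7 to −11.6; adjusted p = 0.0730), and the 3 libraries of each group lay within 5 points of each other. With neither trend nor robust variance the adjusted p was 0.0420, with a range of 0.0420 to 0.276 over 16 alternatives. The remaining 2, at 84654 bp downstream and 7406 bp upstream, were higher in UNx, with adjusted p of 0.343 and 0.291.

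**Figure D4:**
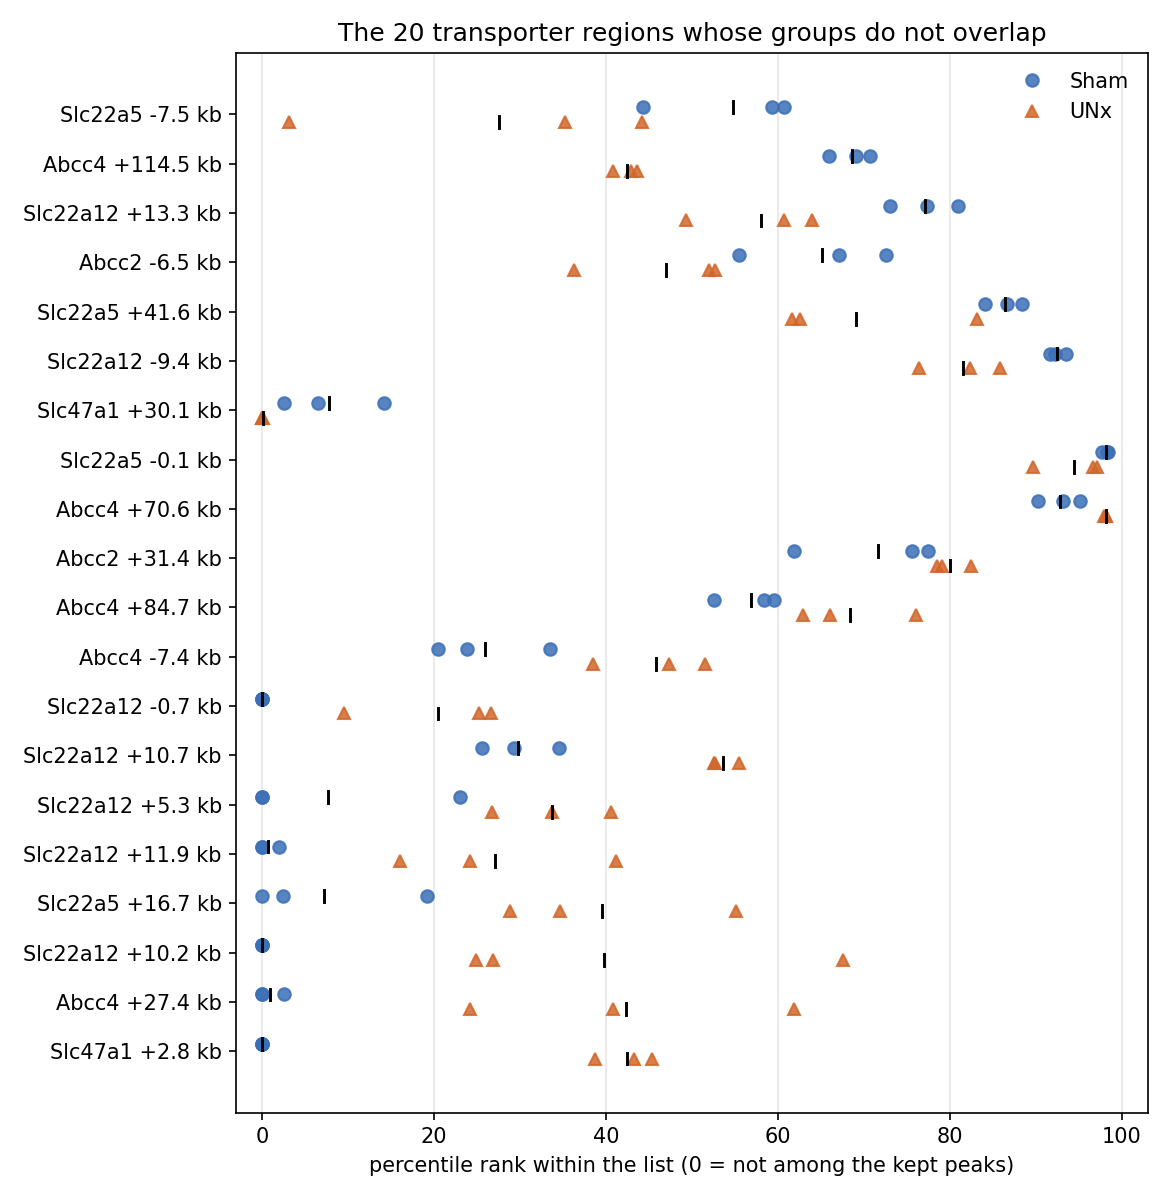
The 20 transporter regions whose UNx values all lie on one side of all Sham values, labelled by gene and distance from its start, with percentile rank by library on the x axis (blue circles Sham, orange triangles UNx, black bars group means). They are ordered from the most negative to the most positive difference. Most regions with the largest positive differences, at the bottom, are at or near 0 in Sham, whereas most of the lower regions, at the top, are mid-ranked or strong in Sham.

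The strings searched in the sequences were counted beside their share in all regions. Among the 87 summit windows of 201 bp, HNF1 (a factor of tubule epithelia) occurred in 4 (4.60%; 2.16% of all tested regions), HNF4 (a factor of proximal tubule and liver) in 3 (3.45%; 2.41%), AP-1 in 8 (9.20%; 7.23%) and NRF2 in 12 (13.8%; 11.4%). All HNF1, HNF4 and AP-1 matches were distal. The HNF1 string lay at 1 region of Slc22a2, 1 of Abcc4 and 2 of Abcc2, including the one in Cutc. Of the 20 separated regions, 3 held a string, all higher in UNx (Abcc4 at 27393 bp, and Slc22a12 at 5342 and 10658 bp downstream, both NRF2). The 67 transporter regions with overlapping groups held HNF1 in 4, HNF4 in 2, AP-1 in 7 and NRF2 in 10. A link between strings and direction was not tested. In RefSeq promoters (GRCm38.p6, 300 bases each), which were found for 8 of the 9 genes, the NRF2 string occurred in those of Abcc2 and Abcc4 (12.4% of all RefSeq promoters). HNF1, HNF4 and AP-1 strings, held by 0.399%, 0.475% and 7.81% of all RefSeq promoters, had no match in the promoters of the 8 genes.

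Promoters of related genes were counted in the same test. Of 37 other genes for organic ion transport, 33 had a promoter region, 32 were tested and 0 were called (0.423% of coding promoters were), with 7 at an unadjusted p under 0.05 (21.9%; 13.5% of coding promoters) and 9 separated (28.1%; 20.1%). Their median difference was −0.580, with 14 of 32 higher, against −0.183 over coding promoters. The smallest p were at Slc2a9, a urate carrier (83.4, 79.6 and 86.6 in Sham, 95.6, 88.0 and 92.9 in UNx, limma adjusted p = 0.102), and Slc16a9, a monocarboxylate family carrier linked to carnitine (88.5, 84.5 and 88.9 in Sham, 93.5, 95.7 and 92.1 in UNx, adjusted p = 0.123). Both were higher in every UNx library. Of 16 scaffold and regulator genes, all 16 were tested, 0 were called, 2 had an unadjusted p under 0.05 (12.5%), 4 were separated (25.0%), and the median difference was 0.747. The scaffold gene Slc9a3r2 (62.0, 69.8 and 62.2 in Sham, 79.5, 74.7 and 83.3 in UNx, adjusted p = 0.140) and the xenobiotic receptor gene Nr1i2 (74.3, 57.6 and 64.6 in Sham, 73.0, 79.8 and 86.2 in UNx, adjusted p = 0.177) had the smallest p. Groups overlapped at Nr1i2 and were apart at Slc9a3r2.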

How the data were processed

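Each of the 6 libraries (3 Sham, 3 UNx) had its own peak list, deposited by the authors. Per the submitters' processing notes, the tools were cutadapt 3.4, Bowtie, SAMtools, Picard and MACS2 2.2.7.1 with build mm10 (GRCm38), and settings are not given in the sources used here. The deposited lists give each summit a score (10 times the −log10 q), a fold enrichment (ratio), a −log10 p, a −log10 q and its position. Depth is unknown.

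Distinct intervals with their strongest summit were ranked by −log10 q, cut to 77355 per list, and merged on 1 bp of overlap. Regions in at least 3 lists were tested with limma 3.58.1 in R 4.3.3 (eBayes with trend and robust estimation, Benjamini-Hochberg adjustment over all regions, two-sided), after a test on simulated data. Single values were compared by exact permutation. The members and lists were chosen with earlier results of these data known. Named for each gene were its promoter, up to 2 strongest distal regions, up to 2 of smallest p, and regions of 1 operation only; other separated regions were named after their values were seen. Alternatives covered the peaks kept, ranking, merging, scale, GC content, filter, variance model, windows, starts (chosen after seeing the data), the replicate block and leaving out each library.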

Additional observations from a re-analysis of the deposited data

How the results depend on the processing

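The call of 0 transporter regions held under every alternative run except normal scores (3 called: Slc47a1 at 2822 bp, Slc22a12 at 10199 bp and Abcc4 at 70590 bp), neither trend nor robust variance (2) and leaving out UNx 2 (2). The Slc47a1 region, called in the first 2 of these settings, and the Slc22a12 region at 10199 bp met the filter only through UNx lists. Their calls are therefore not read. Leaving out 1 library gave 0 to 2. Calls over all regions moved from 604 to 22 with all deposited peaks, 2 with the 20000 strongest, 3 with fold enrichment, 177 from a −log10 q of 5 upward, 134 with reciprocal overlap of 50%, 1555 with normal scores, 2 with GC-corrected ranks, 2 with no filter and 31 to 368 with 1 library left out. A replicate block gave 56, or 0 once GC content was also corrected, and called 0 transporter regions. Libraries of the same number did not deviate together (correlations of 0.00825, −0.0997 and −0.0493), and the labels do not say whether the number stands for a pairing. The count of 20 separated regions was 5 with the 20000 strongest peaks, where 22 transporter regions could be tested, and 11 with fold enrichment.

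The difference in regions per list (3.67) was 13 with all deposited peaks, 16.3 from a −log10 q of 5 upward, −2.33 with fold enrichment and −0.333 to 6.17 with 1 library left out. The median over own promoters (−0.483) was 0.591 with all deposited peaks, −10.5 with the 20000 strongest, −5.28 with fold enrichment, 1.52 from a −log10 q of 5 upward, 0.191 with reciprocal overlap and with no filter, and −2.06 to 1.02 with 1 library left out. The distal median (1.09) was 5.30 from a −log10 q of 5 upward, 3.82 with all deposited peaks, 2.19 with reciprocal overlap, 0.0685 with fold enrichment, 1.61 with GC correction, 0.706 with no filter, 3.79 with a window of 5 kb, 2.02 with promoters of 2.5 kb and 0.446 to 3.35 with 1 library left out. The cause of these shifts was not tested.

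Of 614 values for 38 named regions under the alternatives, 570 kept direction and side of the threshold and 37 changed sign, while 24 regions never did. Fold enrichment gave −1.01 for Slc22a6 12725 bp upstream, 1.42 for its promoter, 2.13 for the Slc22a2 promoter, −5.95 for the Slc22a4 promoter, −4.11 and −2.64 for Slc22a4 at 20987 and 6190 bp, −1.32 for Abcc2 14463 bp upstream and 0.895 for Abcc4 at 11671 bp. All deposited peaks gave 1.09 for the Slc22a6 promoter, 0.0950 for that of Slc22a2 and 0.720 for Abcc4 at 11671 bp, and a −log10 q of 5 or more gave 2.27, 0.354 and 1.22 for the same regions. The 20000 strongest gave −13.5 for Slc22a4 at 20987 bp, reciprocal overlap −11.4 for the Slc22a12 promoter and −12.6 for Slc22a4 at 14953 bp, and GC correction −0.375 for the Slc22a4 promoter, with and without the replicate block. With 1 library left out the ranges were −2.33 to 2.67 for Abcc2 14463 bp upstream, −1.57 to 1.02 for Abcc4 at 11671 bp, −1.63 to 3.46 for the Slc22a12 promoter, −3.18 to 1.21 for that of Slc22a2, −7.89 to 7.09 for Slc22a4 at 20987 bp, −0.439 to 2.04 for the Slc22a4 promoter, −3.58 to 5.09 for Slc22a5 12731 bp upstream, −7.33 to 1.91 for the Slc22a6 promoter, −1.03 to 3.66 for Slc22a6 at 28568 bp, −1.24 to 9.09 for Slc22a8 at 1777 bp and −8.81 to 0.925 for Slc47a1 at 28514 bp. Without read counts, absence from a list cannot be told from a peak too shallow to be called.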
